A study of Mus musculus with 12 samples.

Results

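The miR-297, miR-466, miR-467 and miR-669 families of the mouse are encoded together by a large array of hairpins within Sfmbt2, a Polycomb-related gene on chromosome 2. The assays of these families were taken as all named assays of the deposited TLDA RT-qPCR table whose name starts with one of the 4 family numbers, both arms and star forms included. The rule set no condition on the level of the members, and it found 12 assays among the 269 that could be named and the 593 in the table: miR-467a, miR-467a*, miR-467b*, miR-467c, miR-467d, miR-467e, miR-467e*, miR-297a*, miR-297b-5p, miR-466b-3-3p, miR-466d-3p and miR-669a. An entry for miR-466d-5p matched no assay within the tolerance, since its only near match agreed in 7 of 8 wells, and it was not counted as a member. Naming depended on detection: 0 of the 269 named assays but 186 of the 324 others were undetermined in every sample, so assays of these families that gave no product could not be named and the share of the cluster that was silent is unknown.

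RNA came from bone marrow of C57BL/6 mice, with no other genotype or treatment, and neither the age of the mice nor the number pooled is given in the sources used here. LSK cells (lineage-negative, Sca1+, cKit+ cells, the population with the stem cells and early progenitors), promyelocytes, myelocytes and granulocytes were sorted by FACS, so each group is a gated population and not a pure cell type. Whole cell, cytoplasmic and nuclear RNA of each of the 4 stages gave 12 samples, 1 for each stage and fraction, with 100 ng of RNA as input. No test was made, since each stage and fraction has a single sample, and the differences below have no replicate check. In bulk RNA of this kind, fewer cells of a type and less RNA per cell cannot be told apart.

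A microRNA hairpin is cut in the nucleus by Drosha and in the cytoplasm by Dicer into a short duplex, whose arms can each be loaded into an Argonaute protein to repress matching mRNAs. The arm that was thought to be the less abundant carried a star in older names. Sfmbt2 is an imprinted gene that is known for its expression from the paternal allele in the mouse placenta, and its microRNA array, built from tandem repeats, has been described in rodents.

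The reference annotation listed 81 hairpin genes of the 4 families, of which 71 lie within the bounds of Sfmbt2 and 10 on other chromosomes. Each of the 12 members had at least 1 hairpin inside Sfmbt2. For 11 of them this held for every listed copy, and the exception was miR-297a*, with 3 copies inside Sfmbt2 and 1 on chromosome 7. miR-467a and miR-467a* can come from 10 copies and miR-669a from 12, so an assay reads the sum of its copies and does not say which hairpin was active. The label of the families as one cluster therefore held for the gene bounds, while the position of the hairpins relative to exons and introns was not analysed here.

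Of the 12 members, 0 matched an entry of the RefSeq table of mature microRNAs (GRCm38.p6). The table holds 8 relatives of the same families from other chromosomes, and 4 of them are shown to give the reader the repeat character of these families, with the seed (bases 2 to 8) in capitals. No assay of the table was named after any of the 4.
miR-467h: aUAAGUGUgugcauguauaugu
miR-467g: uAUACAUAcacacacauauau
miR-467f: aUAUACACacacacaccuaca
miR-466k: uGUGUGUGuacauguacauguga
They lie on chromosomes 9 (plus strand, 115381898 to 115381919), 5 (minus strand, 34732872 to 34732892), 11 (minus strand, 69635419 to 69635439) and 3 (plus strand, 85467396 to 85467418), in that order. The letters UGUGUG, searched in the mature strand alone, were held by 4 of the 8 relatives and by 1.67% of the 1679 mature entries. ACAUAC was held by 3 of the 8 relatives and by 0.417% of all entries. The match of letters is a description of these entries, and whether the assays of such alike families read one another's products was not tested.

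In RT-qPCR the CT counts the cycles a well needs to reach a set fluorescence; the more template, the fewer the cycles, and at full efficiency 1 cycle equals a 2-fold difference. Wells with no product are listed at 40 and are called undetermined here. Of the 144 wells of the members, 91 were under 40, 79 under 35 and 16 under 30. Thus most wells lay in the range where detection was incomplete. Among all assays with a cytoplasmic CT from 30 to 33, 3.67% were undetermined in whole cell RNA of the same stage and the rest deviated by a median of 0.55 cycles from the stage's median difference, while from 33 to 35 these figures were 26.0% and 0.81 cycles. These deviations include true differences between the fractions, and they are the nearest measure of error the table allows. CT values of different assays depend on each assay's efficiency and were not used to rank microRNAs by abundance.

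The stages carried their markers. Of 6 stem and progenitor cell microRNAs (miR-125a-5p, miR-125b-5p, miR-126-3p, miR-126-5p, miR-130a and miR-196b), 6 had their lowest CT in LSK, in whole cell as in cytoplasmic RNA. The myeloid microRNA miR-223 went from a whole cell CT of 24.0 in LSK to 16.4 in granulocytes, miR-142-3p from 25.3 to 20.6 and miR-142-5p from 31.2 to 28.0. miR-150, a lymphocyte microRNA, had whole cell CT values of 25.1, 28.8, 25.6 and 25.8 from LSK to granulocytes, and the erythroid microRNA miR-486 was undetermined in LSK and promyelocytes and at 31.5 and 31.7 in myelocytes and granulocytes. miR-451 was not among the named assays. The part of other cells in the results below was not tested. Whole cell samples had 259 to 288 assays detected, cytoplasmic samples 263 to 294 and nuclear samples 199 to 229.

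Detection was even for some members and scattered for others. miR-467a, miR-467a*, miR-467b* and miR-297a* were under 40 in all 12 samples, as were 128 of the 593 assays. These 4 and miR-467c, which was missed in a single well, LSK nuclear RNA, are called the core members. miR-467d was missed in 3 wells. The other 6 members were each undetermined in at least 5 of 12 wells, and miR-297b-5p, miR-466b-3-3p, miR-466d-3p and miR-467e* were undetermined in all 4 nuclear samples. In granulocytes 10 members were under 40 in whole cell RNA and 10 in cytoplasmic RNA, against 7 and 6 in myelocytes, 8 and 9 in promyelocytes and 8 and 10 in LSK, so that cytoplasmic RNA of LSK held as many as that of granulocytes. Over all 593 assays the share under 40 was 48.6% in granulocytes and 48.1% in myelocytes in whole cell RNA, and 46.2% at both stages in cytoplasmic RNA.

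In what follows, series of 4 values run in the order LSK, promyelocytes, myelocytes and granulocytes. miR-467a* is the 3p arm of the miR-467a hairpins. Its whole cell CT was 31.4, 29.2, 29.0 and 27.8 from LSK to granulocytes, a lower CT at each stage. Its cytoplasmic CT was 29.3, 30.8, 30.6 and 28.3 and its nuclear CT 29.7, 28.8, 31.9 and 30.7. Granulocytes thus had the lowest CT in whole cell and cytoplasmic RNA and promyelocytes the lowest in nuclear RNA.

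miR-467a, the 5p arm of the same hairpins, had whole cell CT values of 31.8, 29.9, 31.1 and 27.7 from LSK to granulocytes. In cytoplasmic RNA it read 30.2, 31.0, 31.7 and 28.1, and in nuclear RNA 35.9, 34.5, 34.6 and 30.4. Granulocytes had the lowest CT in the 3 fractions, by 1.79 cycles or more after scaling in whole cell RNA.

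The other core members followed a like course in whole cell RNA, with a lower CT in promyelocytes than in LSK and the lowest in granulocytes. miR-467b*, a 3p arm, had whole cell CT values of 33.6, 31.6, 31.4 and 29.9 from LSK to granulocytes, cytoplasmic values of 31.8, 32.5, 32.8 and 30.2, and nuclear values of 32.1, 31.7, 32.5 and 31.9. The nuclear values of miR-467b* thus stayed within 0.81 cycles. miR-297a* read 33.7, 31.4, 32.7 and 29.8 in whole cell, 31.8, 32.6, 34.2 and 30.3 in cytoplasmic, and 33.2, 31.5, 32.4 and 31.6 in nuclear RNA. miR-467c read 33.7, 31.9, 35.1 and 29.6 in whole cell and 31.8, 34.0, 34.5 and 30.1 in cytoplasmic RNA, and in nuclear RNA it was undetermined in LSK and then read 35.1, 34.2 and 32.8.

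The other members were detected less evenly over the stages. miR-467d had whole cell CT values of 39.4, 38.8, 34.7 and 32.8, and in cytoplasmic RNA it read 36.0 and 34.7 in LSK and promyelocytes, was undetermined in myelocytes and read 32.2 in granulocytes. miR-467e was undetermined in whole cell RNA of LSK and promyelocytes and read 34.7 in myelocytes and 31.6 in granulocytes, whereas in cytoplasmic RNA it was detected in LSK at 32.9 and in granulocytes at 32.7 alone. Its 3p arm miR-467e* was detected in whole cell RNA of granulocytes only, at 33.5, and in cytoplasmic RNA of promyelocytes at 34.0 and of granulocytes at 33.5. Both arms of miR-467e were therefore found in granulocytes of both fractions, but not in the same other samples.

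miR-669a read 31.9 in promyelocytes and 34.1 in granulocytes in whole cell RNA and was undetermined in LSK and myelocytes, although its cytoplasmic CT was between 33.2 and 34.5 at the 4 stages. miR-466b-3-3p was found in cytoplasmic RNA alone, at 32.5 in both promyelocytes and granulocytes. miR-297b-5p did not reach a CT under 35 in any sample; it read 36.9 and 36.7 in whole cell RNA of LSK and promyelocytes and 36.2 in cytoplasmic RNA of LSK. The fractions of 1 stage disagreed for these members in detection itself.

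miR-466d-3p had both the lowest CT of any member and the widest jumps. It read 27.5 in LSK and 25.6 in granulocytes in whole cell RNA, and 26.5 in LSK in cytoplasmic RNA, and was undetermined in the other 9 samples. LSK thus agreed between whole cell and cytoplasmic RNA, while granulocytes differed by the full span from 25.6 to undetermined.

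**Figure D1:**
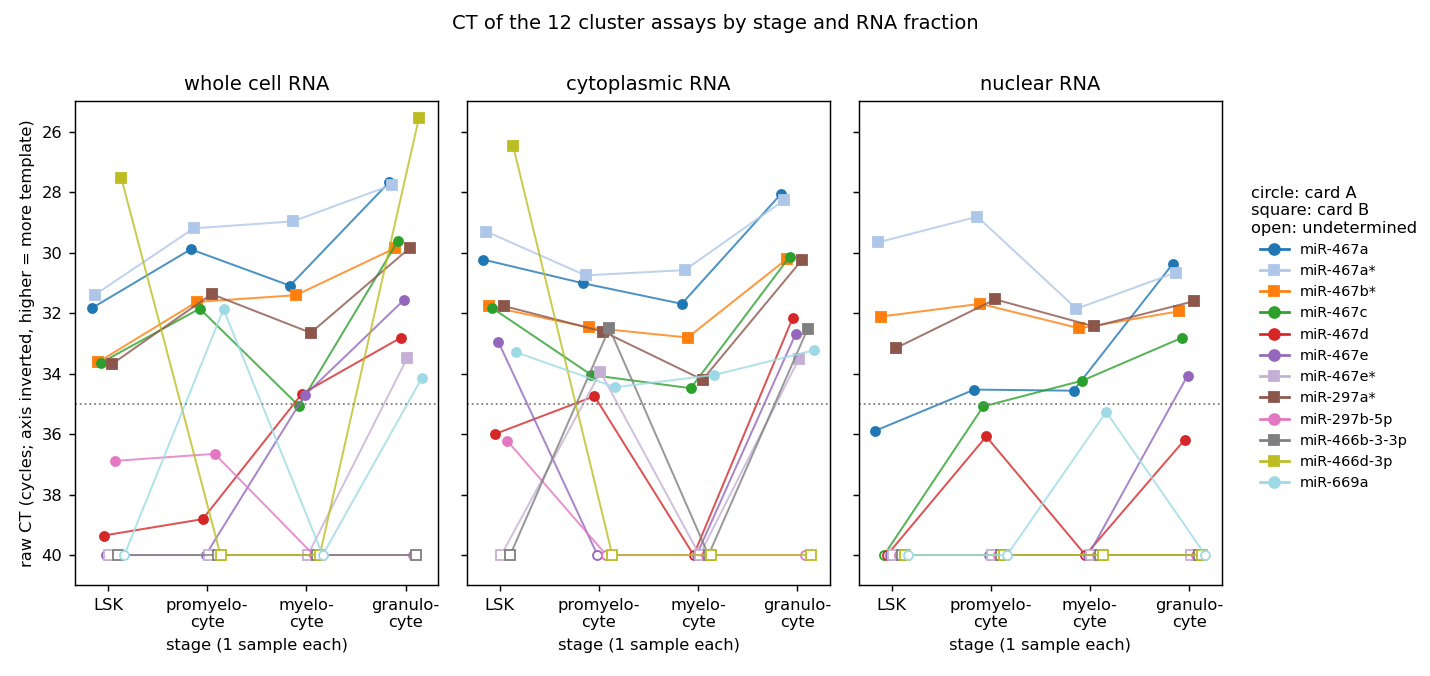
Raw CT of the 12 members (y axis, inverted, in cycles) in LSK, promyelocytes, myelocytes and granulocytes (x axis, 1 sample each), with whole cell, cytoplasmic and nuclear RNA in separate panels; circles are assays of card A, squares those of card B, open symbols undetermined wells listed at 40, and the dotted line marks a CT of 35. The core members lie between 27.7 and 35.1 in whole cell RNA and reach their lowest CT in granulocytes, and 4 members are undetermined in all 4 nuclear samples. The card was inferred from the printed decimals and the row order.

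The first comparison asked which members changed from LSK to promyelocytes. Changes in whole cell RNA are given after subtraction of how far the mean CT of 3 assays, the last ones of card B, had moved, and an assay counts as measured with a CT under 35 in at least 1 of the 2 samples. In whole cell RNA 7 members were measured, and 6 were higher by 2-fold or more in promyelocytes, against 33.2% of the 256 assays measured; 1 member, miR-466d-3p, was lower, against 25.8%. The 5 core members detected in both samples were higher by 1.55 to 2.05 on the log2 scale: 1.95 for miR-467a*, 1.70 for miR-467a, 1.75 for miR-467b*, 2.05 for miR-297a* and 1.55 for miR-467c. The median over all measured assays was 0.27. miR-669a was the sixth, from undetermined to 31.9, and its size depends on setting undetermined wells to 40.

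In cytoplasmic RNA the same step ran the other way. Of 11 members measured, 5 were lower by 2-fold or more in promyelocytes and 3 were higher, while 63.4% of the 268 assays measured were lower and 11.2% higher. The cytoplasmic changes, which were not scaled, were -1.45 for miR-467a*, -0.78 for miR-467a, -0.70 for miR-467b*, -0.85 for miR-297a* and -2.21 for miR-467c. The median of the 11 members was -0.85 and that of all assays -1.34, and members lay on both sides of the latter. Among the 7 members detected in both samples 3 were lower and 1 higher. The 3 that were higher were miR-467d, by 1.25, and miR-466b-3-3p and miR-467e*, both undetermined in LSK. When the cytoplasmic samples were scaled on the last 3 assays of card B, miR-467a* turned to 0.40 and miR-669a from -1.16 to 0.70, and 6 members were higher and 2 lower. This scaling shifts every assay by the same amount. The median of all assays went from -1.34 to 0.51 with it, so each member kept its distance from that median. These 3 assays were themselves richer in nuclear RNA, with a nuclear minus cytoplasmic CT between -4.15 and -3.11 in LSK and between -6.18 and -5.26 in promyelocytes, and their part in this scaling was not tested. The sign of this cytoplasmic step therefore depended on the scaling, for the median of all assays as for these members.

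On the raw CT, the 5 core members were lower in CT in promyelocytes than in LSK in whole cell RNA and higher in cytoplasmic RNA. The same was true of 52.3% of the 195 assays detected in the 4 samples, so opposite signs were not particular to the cluster. They also depended on the scaling: with both fractions scaled on the last assays of card B, 1 of the 5 members and 7.18% of the assays had them, and with both scaled on the mean CT of assays under 30, 2 members and 14.9%. The whole cell change exceeded the cytoplasmic one by 2.73 cycles for miR-467a, 3.65 for miR-467a*, 2.69 for miR-467b*, 3.15 for miR-297a* and 4.01 for miR-467c. Over all 195 assays the median of this gap was 1.83 cycles, with quartiles of 1.34 and 2.67, and the 5 members were among the 48 assays with the widest gaps. Nuclear RNA went with whole cell RNA in sign, with raw changes of 1.36 for miR-467a, 0.85 for miR-467a*, 0.42 for miR-467b* and 1.61 for miR-297a* and a median of 0.01 over all assays.

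**Figure D2:**
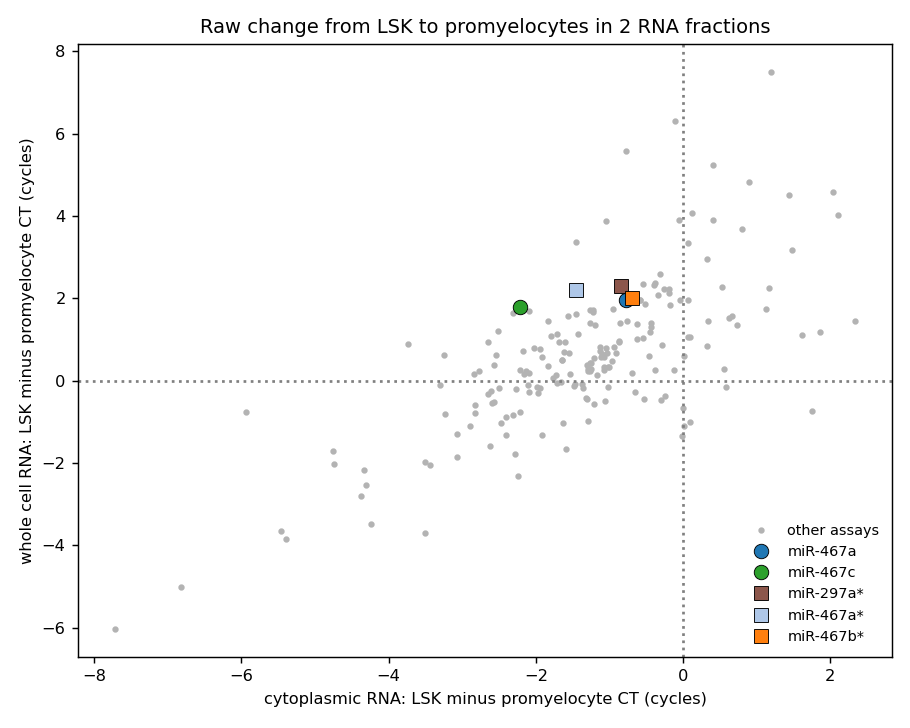
Raw change from LSK to promyelocytes in whole cell RNA (y axis) against that in cytoplasmic RNA (x axis), both as the LSK minus the promyelocyte CT in cycles, so that positive values are higher levels in promyelocytes; grey points are other assays detected in the 4 samples and coloured symbols the 5 core members. The 5 members lie in the upper left field, at 1.80 or more in whole cell and between -2.21 and -0.70 in cytoplasmic RNA.

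From promyelocytes to myelocytes the members parted. In whole cell RNA 2 of 8 measured members were higher by 2-fold or more, against 41.2% of the 260 assays measured, and 4 were lower, against 19.2%. The lower ones were miR-467c with a change of -3.20, miR-297a* with -1.27, miR-467a with -1.19 and miR-669a, which became undetermined. miR-467a* and miR-467b* changed by 0.24 each. miR-467d was higher by 4.15 and miR-467e went from undetermined to 34.7, but miR-467d started from a CT of 38.8, and with undetermined wells and higher CTs set to 35 these changes were 0.34 and 0.30, under the 2-fold limit. Among the 6 members detected in both samples 1 was higher and 3 lower. The median of the 8 members was -0.48, beside 0.65 for all assays.

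In cytoplasmic RNA 0 of 9 measured members were higher by 2-fold or more in myelocytes, where 50.0% of the 250 assays measured were, and 4 were lower, against 18.0%. Of the 4, miR-297a* changed by -1.59, and miR-467d, miR-467e* and miR-466b-3-3p became undetermined. These 3 were measured through the promyelocyte well alone and could only be called lower, and among the 6 members detected in both samples 1 was lower. The remaining 5 members changed by -0.68 to 0.41. The median of the members was -0.68 and that of all assays 0.99. Scaled on the last assays of card B, 9 members were lower in this step, and 7 when scaled on the mean CT of assays under 30. Each scaling shifts every assay alike, and the median of all assays was -0.68 and -0.07 with them. In nuclear RNA miR-467a* changed by -3.04, miR-297a* by -0.89 and miR-467b* by -0.81, while miR-467a was at -0.04 and miR-467c at 0.86, with a median of -0.61 over all assays.

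From myelocytes to granulocytes most members were at higher levels. In whole cell RNA 9 of 10 measured members were higher by 2-fold or more, where 19.8% of the 273 assays measured were, and 0 were lower, where 16.8% were. The exception was miR-467a*, with a change of 0.77. The members detected in both samples were higher by 5.02 for miR-467c, 2.98 for miR-467a, 2.71 for miR-467e, 2.37 for miR-297a*, 1.42 for miR-467d and 1.12 for miR-467b*. The median of all 10 was 2.84, and 2.37 for the 7 detected in both samples, beside 0.05 for all assays. miR-669a, miR-467e* and miR-466d-3p went from undetermined to detected; they were measured through the granulocyte well alone and could only be called higher, and among the 7 members detected in both samples 6 were higher. The near match of miR-466d-5p, which is not counted, went the other way, from a CT of 34.97 to 36.32.

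In cytoplasmic RNA of the same step 9 of 10 measured members were higher by 2-fold or more, where 22.0% of the 250 assays measured were, and 0 were lower, where 18.4% were. Here the exception was miR-669a, with 0.81. Changes were 4.35 for miR-467c, 3.95 for miR-297a*, 3.63 for miR-467a, 2.59 for miR-467b* and 2.31 for miR-467a*, and miR-467d, miR-467e, miR-467e* and miR-466b-3-3p went from undetermined to between 32.2 and 33.5. When scaled on the last assays of card B, the first 5 changes were 2.76, 2.36, 2.04, 1.0 and 0.72, the last of them under the 2-fold limit. The 4 members undetermined in myelocytes were measured through the granulocyte well alone and could only be called higher, and among the 6 members detected in both samples 5 were higher. The median of the members was 4.15, and 3.11 over those 6, beside 0.16 for all assays. The whole cell and cytoplasmic samples are separate RNA preparations of one stage, and the count of higher members was 9 in each. miR-466d-3p and miR-669a were higher in whole cell RNA alone, and miR-467a* and miR-466b-3-3p in cytoplasmic RNA alone. The equal counts of 9 thus do not cover the same members. With a CT limit of 30 in place of 35 these counts were 5 in whole cell and 2 in cytoplasmic RNA. In nuclear RNA the changes were 4.19 for miR-467a, 1.41 for miR-467c, 1.20 for miR-467a*, 0.83 for miR-297a* and 0.56 for miR-467b*, beside a median of 1.47 over all assays.

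**Figure D3:**
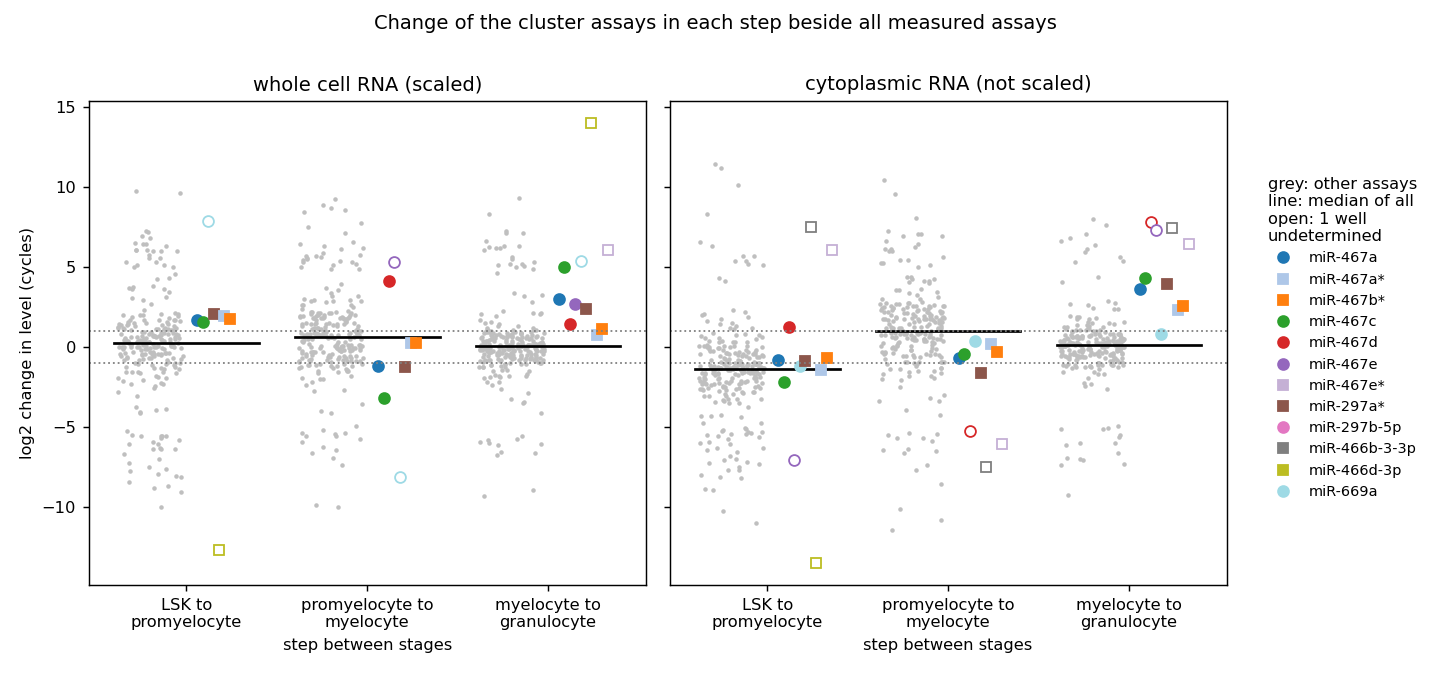
Log2 change in level (y axis, in cycles) in each step between stages (x axis) in whole cell RNA, scaled, and cytoplasmic RNA, not scaled; coloured symbols are members (circles card A, squares card B, open where 1 of the 2 wells was undetermined), grey points the other measured assays, black lines the median of all of them and dotted lines the 2-fold limit. In the last step 9 members lie above the limit in each fraction, and in the middle step most members lie below the median of all assays.

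Over the whole course from LSK to granulocytes, whole cell RNA of the core members was higher by 3.49 for miR-467a, 3.37 for miR-467c, 3.16 for miR-297a*, 3.10 for miR-467b* and 2.96 for miR-467a*, beside a median of 0.68 for all assays measured. In cytoplasmic RNA the same members were higher by 2.17, 1.71, 1.52, 1.57 and 1.04, beside a median of -0.20. When cytoplasmic RNA was scaled on the last assays of card B, a choice added after seeing the data, they changed by 0.75, 0.29, 0.10, 0.15 and -0.38, each under the 2-fold limit, beside a median of -1.61. In nuclear RNA miR-467a was higher by 5.52, miR-297a* changed by 1.54, miR-467b* by 0.17 and miR-467a* by -1.0, beside a median of 1.28. These values share their samples with the steps above and are not further evidence for them.

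The stage of the lowest CT was granulocytes for 9 of 10 measured members in whole cell RNA, against 34.8% of the 302 assays measured, and for 9 of 11 in cytoplasmic RNA, against 33.8% of 293. miR-669a had its lowest whole cell CT in promyelocytes. miR-467e* was detected in whole cell RNA of granulocytes alone, and miR-467e in nuclear RNA of granulocytes alone. In that fraction each could only be counted for granulocytes. In cytoplasmic RNA the exceptions were miR-466b-3-3p, lowest in promyelocytes by a margin of 0.01 cycles, and miR-466d-3p, lowest in LSK. Among the 9 counted in cytoplasmic RNA, granulocytes lay below LSK by 0.06 cycles for miR-669a and 0.27 for miR-467e, and below promyelocytes by 0.43 for miR-467e*. The margin over the next stage was 1 cycle or more for 8 members in whole cell and 6 in cytoplasmic RNA. In nuclear RNA 3 of 6 members had their lowest CT in granulocytes, against 54.8% of 239, and miR-467a*, miR-467b* and miR-297a* had it in promyelocytes. The margin over the next stage was under 1 cycle for each of the 3: 0.85 over LSK for miR-467a*, and a change of -0.25 and -0.06 from promyelocytes to granulocytes for miR-467b* and miR-297a*.

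A further question of the design was which microRNAs were present in the nucleus. Nuclear and cytoplasmic RNA were compared by the ratio 2 to the power of the cytoplasmic minus the nuclear CT, divided by 3, with a limit of 0.1, computed for assays with a nuclear CT under 35. In LSK 3 of 3 measured members passed the limit, against 24.7% of the 158 assays measured; in promyelocytes 3 of 4, against 34.9% of 152; in myelocytes 4 of 5, against 25.9% of 139; and in granulocytes 3 of 6, against 34.0% of 188. These counts leave out members with a nuclear CT of 35 or more: in LSK 10 members were detected in cytoplasmic RNA, and the 7 that were not measured in the nucleus had ratios of 0.0243 or lower, with the nuclear well undetermined for all but miR-467a. The members that passed in LSK and promyelocytes were miR-467a*, miR-467b* and miR-297a*, joined in myelocytes by miR-467c. Those that passed in LSK and promyelocytes are card B assays, while the shares above pool both cards. The median nuclear minus cytoplasmic CT on card B was 1.54 in LSK and 1.24 in promyelocytes. A difference of 1.73, that of miR-467b* in granulocytes, gives a ratio of 0.101. The median card B assay at these 2 stages therefore passed the limit as well. In granulocytes those that passed were miR-297a* at 0.130, miR-467e at 0.127 and miR-467b* at 0.101, next to the limit, with miR-467a at 0.0672, miR-467a* at 0.0635 and miR-467c at 0.0516 under it. Without the divisor 6 members passed in granulocytes, and with a nuclear CT limit of 30 in place of 35, 1 member, miR-467a*, passed in LSK and in promyelocytes and 0 passed at the later stages. Against 4 times the median ratio of the stage and card, a choice added after seeing the data, 0 passed in LSK and 0 in granulocytes. In promyelocytes and in myelocytes 3 passed on this limit.

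The star arms miR-467a*, miR-467b* and miR-297a* had a nuclear CT below the cytoplasmic CT in promyelocytes and above it in LSK and granulocytes, while miR-467e* was undetermined in nuclear RNA. The nuclear CT was the lower one for 12.7%, 26.3%, 13.7% and 18.1% of all assays measured, from LSK to granulocytes. The nuclear minus cytoplasmic CT of miR-467b* was 0.34, -0.78, -0.30 and 1.73 from LSK to granulocytes. For miR-297a* it was 1.39, -1.07, -1.76 and 1.36, and for miR-467a* 0.36, -1.94, 1.28 and 2.39. Over all assays measured the median was 3.75, 2.42, 3.50 and 2.15 from LSK to granulocytes. The members' values thus lay furthest below the median of the stage in promyelocytes for miR-467a*, by -4.36, and in myelocytes for miR-297a* and miR-467b*, by -5.26 and -3.80, and closest to it in granulocytes.

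miR-467a, the 5p arm of the miR-467a hairpins, differed from them in LSK, promyelocytes and myelocytes. In granulocytes its 2.31 lay next to 2.39 for miR-467a*. miR-467c, also of card A, was at -0.25 in myelocytes, next to -0.30 for miR-467b*, and at 2.69 in granulocytes. The nuclear minus cytoplasmic CT of miR-467a was 5.66 in LSK, where the nuclear CT of 35.9 was over the limit of measurement, 3.52 in promyelocytes, 2.87 in myelocytes and 2.31 in granulocytes. Between arms of the same hairpins, the CT of miR-467a minus that of miR-467a* was 6.23, 5.72, 2.71 and -0.29 from LSK to granulocytes in nuclear RNA. In cytoplasmic RNA this difference ranged from -0.20 to 1.11 over the 4 stages, and in whole cell RNA from -0.09 to 2.12. The size of the difference depends on the efficiency of the 2 assays, and the LSK value in nuclear RNA rests on a miR-467a CT over the limit of measurement.

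The star arms measured in the nucleus are on card B and the 5p arms on card A, so arm and card cannot be told apart among the members. The card of an assay is not labelled and was inferred from the printed decimals and the row order. The cards differed: the median nuclear minus cytoplasmic CT of all measured assays was 4.06 on card A and 1.54 on card B in LSK, 2.67 and 1.24 in promyelocytes, 3.64 and 2.75 in myelocytes, and 2.19 and 2.05 in granulocytes. Against the median of their own card, miR-467a* was at -1.18, -3.18, -1.47 and 0.35 from LSK to granulocytes, miR-467b* at -1.20, -2.02, -3.06 and -0.32, and miR-297a* at -0.15, -2.31, -4.51 and -0.68. miR-467c of card A was at -3.89 in myelocytes and 0.50 in granulocytes. Of the rodent microRNAs taken as nuclear reference, which are also on card B, miR-706 had nuclear minus cytoplasmic CT values of -0.77, -2.50, 0.18 and 1.01, miR-709 of 0.50, -0.34, 1.52 and 0.45, and miR-690 of 1.23, 0.18, 1.59 and 2.02. In promyelocytes miR-467a*, miR-467b* and miR-297a* thus had values between those of miR-706 and miR-709. The paper first picked miR-706, miR-709 and miR-690, together with miR-467a*, from these same CT values, so this comparison is not independent.

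**Figure D4:**
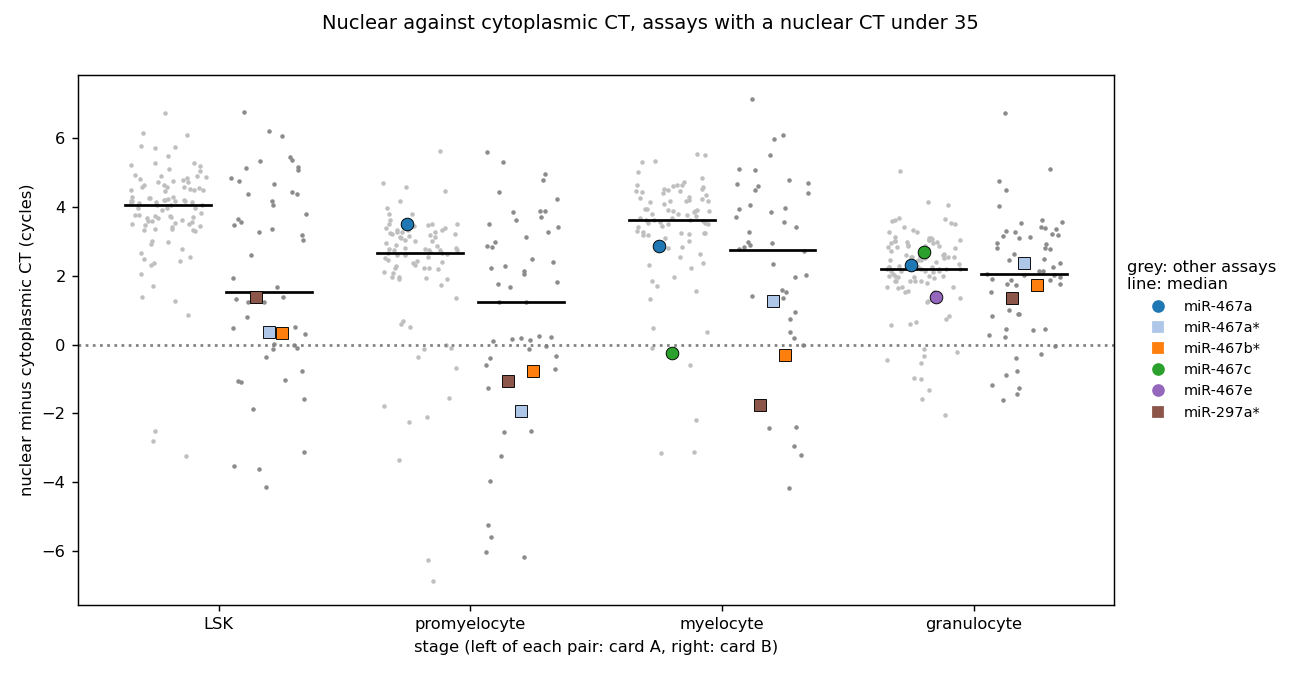
Nuclear minus cytoplasmic CT (y axis, in cycles) of assays with a nuclear CT under 35 at each stage (x axis), with card A on the left and card B on the right of each pair; coloured symbols are members, grey points other assays whose cytoplasmic well was detected, and black lines the median of all assays of the card, undetermined cytoplasmic wells included. The star arms of card B lie below 0 in promyelocytes and near the median of the card in granulocytes.

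The courses of the 4 members detected in all samples, thus without miR-467c, were compared after subtraction of each fraction's mean, over 12 samples that share 4 stages. Pearson's r is given as a description of these samples, and the 128 assays detected in all of them had a median r of 0.252 over their 8128 pairs, with 0.797 at the 90th percentile. Within fractions r was 0.892 between miR-467b* and miR-297a*, each being the assay most like the other, 0.882 between miR-467a* and miR-467b*, and 0.804 between miR-467a and miR-297a*. It was 0.723 between miR-467a* and miR-297a* and 0.680 between miR-467a and miR-467b*, both below that percentile. miR-467a and miR-467a*, the arms of the same hairpins, had an r of 0.416, and miR-467a* stood at place 66 among the assays most like miR-467a.

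As another imprinted group of clustered microRNAs, 19 assays of the Dlk1-Dio3 locus were among those named. From LSK to promyelocytes in whole cell RNA 2 of 8 measured were higher and 5 lower by 2-fold or more, and from myelocytes to granulocytes 1 of 4 was higher and 2 lower. Their median change from LSK to granulocytes was -3.01 in whole cell RNA and -3.0 in cytoplasmic RNA, against 3.43 and 1.57 for the measured members of the Sfmbt2 cluster, a difference described here without a test. Some of these members had 1 of the 2 wells undetermined, which fixed their direction. Over the 7 and 8 members detected in both samples the medians were 3.16 and 1.54. The Dlk1-Dio3 medians were not restricted in this way. In nuclear RNA the median was 1.31 over 3 Dlk1-Dio3 assays and 3.53 over the 6 measured members, beside 1.28 over all assays. Over the 4 members detected in both samples it was 0.86. The other 2 members measured there, miR-467c and miR-467e, were undetermined in LSK.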

How the data were processed

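Raw CT values of TaqMan rodent microRNA array cards A and B were deposited by the authors without normalization, for 593 assays in 12 samples. The card of each assay is not labelled and was inferred from the printed decimals and the row order. The authors separated nuclei and cytoplasm with the PARIS kit, extracted RNA with Trizol, reverse transcribed 100 ng with Megaplex primer pools and called CT values with SDS 2.3 and RQ Manager; undetermined wells are listed at 40. The assays are numbered, and names were given by a single match of the cytoplasmic and nuclear CT values to the names the study lists for them, within 0.0005 cycles (246 of 257 entries), or else of whole cell differences, within 0.002 on the log2 scale (23 further assays), with 0 conflicts.

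The members and lists were chosen with earlier results of these data known. The named microRNAs are the members, 12 cell type markers of which 11 were named, 36 microRNAs of the Dlk1-Dio3 locus of which 19 were named, and miR-706, miR-709 and miR-690. A change is a CT difference; whole cell changes were corrected by how far the mean CT of 3 assays, the last ones of card B, had moved (-0.25, 0.01 and -0.44 cycles for the successive steps). Assays were measured at a CT under 35 and called at 2-fold; no test was made. Each value is 1 well, and its precision is unknown. The alternatives changed scaling, CT limit, fold limit, undetermined wells, efficiency, ratio limit and naming. The RefSeq annotation of GRCm38.p6 gave gene names and neighbours, and the RefSeq table of mature microRNAs of the same build the sequences, their coordinates and the motif counts. Python 3.11.15, numpy 2.4.6, pandas 2.3.3 and matplotlib 3.10.9 were used. The mRNA arrays, cell lines and individual RT-qPCR assays were not analysed here.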

Additional observations from a re-analysis of the deposited data

How the results depend on the processing

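The count of 9 members higher in granulocytes than in myelocytes stayed within 1.5 times in whole cell RNA except with a CT limit of 30, which left 5. In cytoplasmic RNA it was 2 with a CT limit of 30, 5 with a limit of 32 and 5 with undetermined wells left out. With a CT limit of 30, 2 members were higher in whole cell RNA of promyelocytes than of LSK, 0 were higher and 1 lower in whole cell RNA of myelocytes than of promyelocytes, 0 were higher and 2 lower in cytoplasmic RNA of promyelocytes than of LSK, 0 were lower in cytoplasmic RNA of myelocytes than of promyelocytes, and granulocytes had the lowest CT for 2 members in cytoplasmic and 0 in nuclear RNA. With a limit of 32, 0 were higher in whole cell RNA of myelocytes than of promyelocytes, 0 were higher and 3 lower in cytoplasmic RNA of promyelocytes than of LSK, and 0 were lower in cytoplasmic RNA of myelocytes than of promyelocytes. These limits leave fewer members measured. With undetermined wells left out, 0 were lower in whole cell RNA of promyelocytes than of LSK, 1 was higher in whole cell RNA of myelocytes than of promyelocytes (0 with undetermined wells at 35), 1 was higher and 3 lower in cytoplasmic RNA of promyelocytes than of LSK, and 1 was lower in cytoplasmic RNA of myelocytes than of promyelocytes. A 3-fold limit left 2 members lower in whole cell RNA of myelocytes than of promyelocytes and 3 lower in cytoplasmic RNA of promyelocytes than of LSK, where a 1.5-fold limit gave 8. Cytoplasmic RNA depended on its scaling. Scaled on the last 3 assays, 6 members were higher and 2 lower in promyelocytes than in LSK and 9 were lower in myelocytes than in promyelocytes. Scaled on the mean CT of assays under 30, 2 and 7 were lower. Each scaling shifts all assays alike. The medians of all assays in these 2 steps went from -1.34 and 0.99 to 0.51 and -0.68 on the last 3 assays. On the mean CT they were -0.13 and -0.07. The changes from LSK to promyelocytes turned to 0.40 for miR-467a* and 0.70 for miR-669a on the last 3 assays and to 0.06 for miR-669a on the mean CT, and the cytoplasmic change of miR-467a* from LSK to granulocytes turned to -0.38 on the last 3 assays, a scaling of that comparison added after seeing the data. With both fractions scaled, a choice added after seeing the data, 1 core member on the last 3 assays and 2 on the mean CT were higher in whole cell and lower in cytoplasmic RNA of promyelocytes than of LSK, beside 7.18% and 14.9% of all assays. Members over the ratio limit numbered 1 in LSK as in promyelocytes and 0 in both later stages with a nuclear CT limit of 30, 1 in LSK and 1 in myelocytes with a limit of 32, and 6 in granulocytes without the divisor. Against 4 times the stage's median ratio, 0 passed in granulocytes, and against 4 times the median of stage and card, also added after seeing the data, 0 passed in LSK and 0 in granulocytes. The other 133 recomputed counts stayed within 1.5 times. No paired analysis by replicate was made, since each stage and fraction has 1 sample; nuclear and cytoplasmic values were compared within each stage.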
